A study of Mus musculus with 9 samples.

Results

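The MAL proteolipid family was examined as 4 mouse genes, Mal, Mal2, Mall and Pllp, out of 55536 genes counted in dorsal root ganglia of the lumbar level, where sensory neurons sit among satellite glia and myelinating Schwann cells. The genes were chosen by symbol with their levels in icKO and control libraries, as counts scaled to library size (CPM), already in view, so the differences between the groups given here for these 4 genes are a description and carry no test. The study held 5 libraries labelled icKO, from adult C57Bl6 mice with an inducible conditional knock-out of Prdm12, and 4 labelled Ctrl with a wild type genotype, from adult C57Bl6 mice, called control here. Both groups date from 1 month after tamoxifen, which switches on an inducible Cre recombinase. Prdm12 encodes a zinc finger regulator of transcription that pain-sensing neurons need to form. The labels give neither the Cre line nor the deleted exon nor any floxed allele in the controls. Whether each library is a separate animal is also left unsaid, so p-values rest on the spread among these libraries alone, part of which may be technical.

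MAL family proteins are small proteins that cross the membrane 4 times through a MARVEL domain and settle in cholesterol- and glycolipid-rich membrane. Mal, the myelin and lymphocyte protein, is known from compact myelin, from T lymphocytes and from transport to the apical surface of epithelial cells. Mal2 is known from transcytosis in liver and other epithelial cells and binds the proteins Inf2 and Tpd52, Mall (also named BENE) associates with caveolin in human cells, and Pllp encodes plasmolipin, a protein of myelin and kidney. Both Mal and Pllp are made by myelinating glia in nerve.

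The genes are relatives but not near copies, which bears on whether their reads could be shared. Their coding sequences hold 175 codons in Mal2, 153 in Mal, 182 in Pllp and 154 in Mall, and aligned bases were identical at 62.6% between Mal2 and Mal, the closest pair, and at 53.4% between Mal2 and Pllp, the most distant. The longest stretch shared without a mismatch by any pair of these transcripts was 14 bases, between Mal2 and Pllp. The best conserved stretch of 60 coding bases is shown to make this visible, with the 21 bases that all 4 genes share in capitals (GENCODE M21 transcripts, GRCm38, read 5′ to 3′ along each gene). It lies within 1 exon in each gene, at bases 145 to 204 of the Mal2 coding sequence, 109 to 168 of Mal, 151 to 210 of Pllp and 127 to 186 of Mall. In the genome these are chr15:54588329-54588388 on the plus strand for Mal2, and, on the minus strand, chr2:127640314-127640373 for Mal, chr8:94679444-94679503 for Pllp and chr2:127712362-127712421 for Mall.
Mal2: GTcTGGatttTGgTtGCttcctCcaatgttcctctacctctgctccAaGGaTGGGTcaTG
Mal: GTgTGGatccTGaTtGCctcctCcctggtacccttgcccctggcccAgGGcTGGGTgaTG
Pllp: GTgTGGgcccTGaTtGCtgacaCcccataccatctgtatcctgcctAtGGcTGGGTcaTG
Mall: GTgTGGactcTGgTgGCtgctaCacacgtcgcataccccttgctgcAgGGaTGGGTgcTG
Set against Mal, 42 of these 60 bases match in Mal2, 38 in Pllp and 38 in Mall. The bases that all 4 genes share lie on either side of a middle part that holds none of them.

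The libraries held 19607740 to 29481589 counts. Prdm12, the targeted gene, was read first as a check of the labels. It stood at 23.4, 24.2, 24.1, 22.3 and 26.2 CPM in icKO replicates 1 to 5 and at 128, 129, 116 and 163 CPM in control replicates 1 to 4. All icKO libraries lay far below all control libraries. The log2 fold change was -2.48 (SE 0.09, edgeR adjusted p = 2.51e-08), and an exact two-sided permutation test gave p = 0.00794, the smallest that 5 against 4 libraries allow.

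Mal2 was the member that differed most clearly between the groups. It lies on the plus strand of chromosome 15 from 54571192 to 54602847 (mm10) with 4 exons in 1 annotated transcript, and no annotated gene overlaps it. The icKO libraries held 178, 168, 178, 190 and 196 CPM (replicates 1 to 5), and 263, 277, 271 and 293 CPM were held by control replicates 1 to 4. Every icKO library lay below every control library, and the gap between the groups was wider than the range within either of them. Mal2 averaged 182 ± 10.9 CPM in icKO (SD, n = 5) and 276 ± 12.5 CPM in control (SD, n = 4), so that icKO ganglia held 65.9% of the control level. The log2 fold change was -0.60 (SE 0.06). Behind these values stood 4334 to 5304 reads in each icKO library and 5682 to 7438 reads in each control library, so counting error was small beside the spread between libraries. Of the 4 members, 1 showed no overlap between the groups, beside 4.5% of the 17258 genes tested in either direction and 2.34% with icKO lower, and since the members were chosen on these values nothing is read from those shares. A log2 fold change below that of Mal2 was found for 242 of the genes tested.

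**Figure D1:**
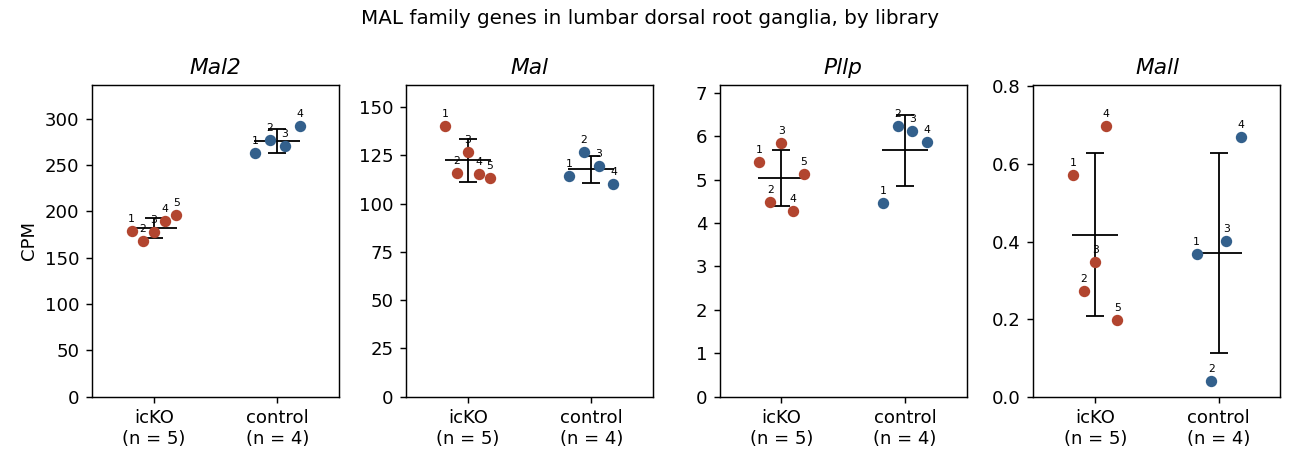
Level of each MAL family gene in CPM (y axes from 0, scaled per gene) in the 5 icKO and 4 control libraries, with points numbered by replicate and bars giving mean ± SD. Mal2 separates the groups (168 to 196 CPM in icKO, 263 to 293 CPM in control), while the points of Mal, Pllp and Mall overlap.

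Libraries of both groups differed in the level of Y-linked genes, and the Mal2 difference was of like size on either side of that split. Among the 4 libraries with high Y-linked counts, Mal2 stood at 168 and 178 CPM in icKO 2 and 1 and at 263 and 271 CPM in control 1 and 3, a log2 fold change of -0.62 (SE 0.07). Among the 5 libraries with low Y-linked counts, it stood at 178 to 196 CPM in 3 icKO libraries and at 277 and 293 CPM in 2 control libraries, a log2 fold change of -0.60 (SE 0.09). In bulk tissue, fewer cells that express Mal2 and less Mal2 RNA per cell cannot be told apart.

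Mal, the gene of compact myelin, stood at nearly the same level in both groups. It lies on the minus strand of chromosome 2 from 127633226 to 127656695, with 2 protein-coding transcripts. Its values were 140, 116, 127, 115 and 113 CPM in icKO replicates 1 to 5, and 114, 127, 120 and 110 CPM in control replicates 1 to 4. The groups overlapped, and icKO 1 was the highest library of all 9. Mal averaged 122 ± 11.3 CPM in icKO (SD, n = 5) and 118 ± 7.02 CPM in control (SD, n = 4), and the log2 fold change was 0.06 (SE 0.07). Without icKO 1 the log2 fold change was 0.002, and without control 2 it was 0.09.

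Pllp, the plasmolipin gene, was measured at a far lower level and its groups overlapped as well. The values were 5.42, 4.49, 5.85, 4.28 and 5.13 CPM in icKO replicates 1 to 5 and 4.47, 6.25, 6.12 and 5.87 CPM in control replicates 1 to 4. Control 1 lay apart below the other control libraries and inside the icKO range. Pllp averaged 5.03 ± 0.650 CPM in icKO (SD, n = 5) and 5.68 ± 0.819 CPM in control (SD, n = 4), a log2 fold change of -0.17 (SE 0.13) that became -0.27 (SE 0.13) without control 1. Each library held 104 to 168 reads of Pllp. The gene lies on the minus strand of chromosome 8 from 94674894 to 94696278, and the antisense gene Gm45767 shares 1128 exonic bases with it. Whether counting used the strand is not given in the sources used here, so reads of the shared bases could not be told apart. Gm45767 itself was counted at 0.946 to 1.41 CPM in icKO and 0.843 to 1.55 CPM in control.

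Mall was close to the limit of detection. It had 17, 7, 10, 17 and 5 reads in icKO replicates 1 to 5 and 10, 1, 11 and 13 reads in control replicates 1 to 4, or 0.197 to 0.699 CPM in icKO and 0.0408 to 0.670 CPM in control. A count of 3 reads, taken as the floor of detection, corresponds to 0.102 to 0.153 CPM, and control 2 lay below it. The log2 fold change was 0.22 (SE 0.51), and it turned to -0.15 without control 2, so a difference in Mall was not detectable at this depth. Mall lies on the minus strand of chromosome 2 from 127704386 to 127729932, with 47690 bases between it and Mal, its nearest protein-coding neighbour on that side.

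The neighbours of the members described here lay at like levels in both groups where they were tested. Beside Mal, the mitochondrial ribosomal protein gene Mrps5 had a log2 fold change of 0.03 (SE 0.05). Beside Mal2, Ccn3, which encodes a secreted matricellular protein, stood at 21.5 ± 5.03 CPM in icKO (SD, n = 5) and 19.9 ± 2.94 CPM in control (SD, n = 4), and Colec10 did not reach the filter on low counts. Arl2bp, which lies 468 bases from Pllp, had a log2 fold change of -0.04 (SE 0.05), and Ccl22 on the other side did not reach the filter. None of Mrps5, Ccn3 and Arl2bp had an adjusted p under 0.05 in the edgeR fit, the lowest being 0.839 for Arl2bp.

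Levels of different genes were compared per length, as TPM, in which counts are scaled by exon length and then by library. The order was Mal2, Mal, Pllp and Mall in every one of the 9 libraries, and no neighbours in this order overlapped within a group. In icKO, means were 223 ± 10.6 TPM for Mal2, 159 ± 16.1 TPM for Mal, 8.73 ± 1.16 TPM for Pllp and 0.751 ± 0.376 TPM for Mall (SD, n = 5). In control, they were 341 ± 16.9 TPM for Mal2, 154 ± 8.95 TPM for Mal, 9.93 ± 1.43 TPM for Pllp and 0.679 ± 0.468 TPM for Mall (SD, n = 4). Mal2 was thus among the abundant transcripts of the ganglion, at rank 668 in icKO and rank 386 in control of 14804 protein-coding genes tested. Mal had rank 1015 in icKO and 1079 in control. Pllp and Mall lay in the lower part of the ranking, at 9757 and 14141 in icKO and 9382 and 14227 in control. The TPM of Pllp was scaled by its full exon length, including the 1128 bases shared with Gm45767. If reads of those bases were left uncounted, its TPM would be too low and the ratio of Mal to Pllp too high.

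With Mal2 lower in icKO and Mal at a like level, the make-up of the family differed between the groups. Mal2 supplied 57.0 ± 3.00% of the family's summed TPM in icKO (SD, n = 5) and 67.4 ± 1.73% in control (SD, n = 4), and Mal supplied 40.6 ± 2.87% in icKO and 30.5 ± 1.78% in control. The sum itself was 391 ± 16.7 TPM in icKO and 506 ± 18.6 TPM in control. The ratio of Mal2 to Mal within a library, which no scaling between libraries can alter, was 1.20, 1.36, 1.32, 1.55 and 1.62 in icKO replicates 1 to 5 and 2.16, 2.06, 2.13 and 2.502 in control replicates 1 to 4. The ratios did not overlap between the groups. The ratio of Mal to Pllp was 18.4 ± 1.83 in icKO and 15.8 ± 2.33 in control, with overlapping libraries.

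**Figure D2:**
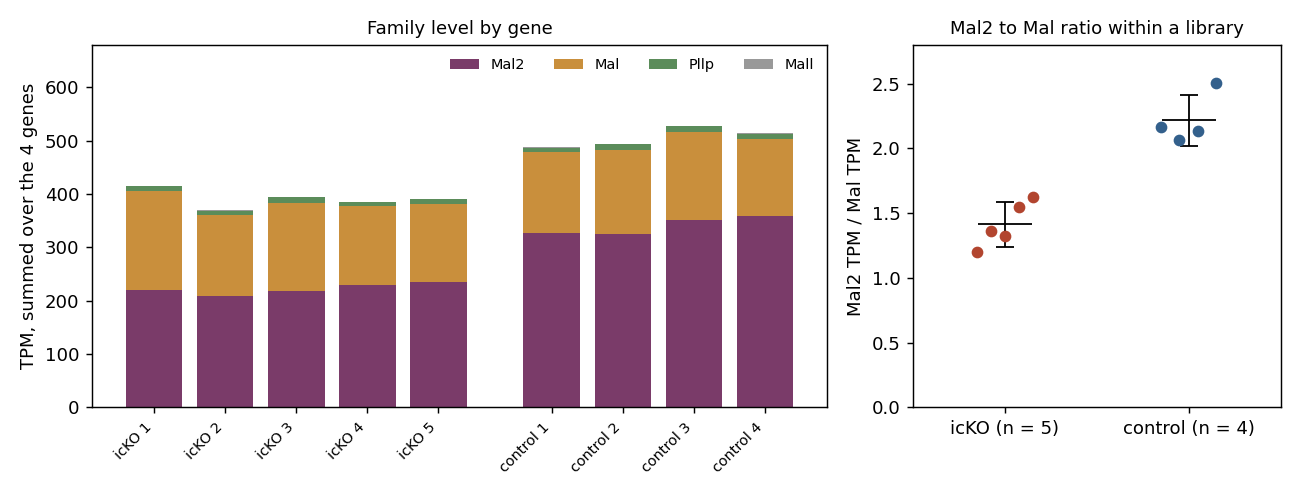
Left, TPM of the 4 MAL family genes stacked for each of the 9 libraries; right, ratio of Mal2 TPM to Mal TPM in each library, with mean ± SD per group. The Mal segment of the bar is of like height in TPM in both groups, and the ratio is 1.20 to 1.62 in icKO and 2.06 to 2.502 in control.

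Other genes of the same kind and of the same pathways were then read from the fit across all genes. Of all 17258 genes tested, 0.852% had an adjusted p under 0.05 in the edgeR fit, 0.475% as higher and 0.377% as lower, and 11.1% had an unadjusted p under 0.05. Among 21 relatives with a MARVEL domain, which include the physins and gyrins of synaptic vesicles, occludin and the CMTM proteins, 18 were tested, 0 passed and 4 had an unadjusted p under 0.05, beside 11.1% of all genes tested. Their median log2 fold change was 0.004, beside -0.001 over all genes tested. The 4 were the membrane proteolipid gene Plp2 at 0.46 (SE 0.10, adjusted p = 0.0639), Synpr, which encodes synaptoporin of synaptic vesicles, at 0.37 (SE 0.09, adjusted p = 0.0715), Cmtm6 at 0.29 (SE 0.07, adjusted p = 0.0739) and Cmtm8 at 0.45 (SE 0.13, adjusted p = 0.166). All 4 lie on the other side of zero from Mal2. Their libraries did not overlap between groups, Synpr for example standing at 545 to 664 CPM in icKO and 407 to 524 CPM in control. Of all genes tested, 4.5% showed no overlap. Since these 4 were picked by their small p-values, nothing is read from setting them beside that share. Myadm was listed at 0 in all libraries, and whether its reads were lost in counting was not tested.

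Of 17 genes of membrane rafts and apical transport, among them the known Mal2 partners, 17 were tested, 0 passed and 2 had an unadjusted p under 0.05, a share near the 11.1% of all genes tested. Tpd52, whose product binds Mal2, was at 290 ± 8.41 CPM in icKO (SD, n = 5) and 258 ± 16.4 CPM in control (SD, n = 4), a difference of 0.17 on the log2 scale (SE 0.06, adjusted p = 0.249). The caveolin gene Cav2 was at 0.16 (SE 0.07, adjusted p = 0.367), the annexin gene Anxa2 at 0.15 (SE 0.08, adjusted p = 0.550) and Stx3, a syntaxin gene of apical membrane fusion, at 0.12 (SE 0.07, adjusted p = 0.585). The median of the list was 0.04.

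Myelin genes, beside which Mal and Pllp are known in nerve, had no member past the threshold. Of 17 genes of Schwann cell myelin, 17 were tested, 0 passed and 0 had an unadjusted p under 0.05, beside 11.1% of all genes tested. Their median log2 fold change was -0.007. Their summed level was 4665 to 5347 CPM in icKO and 4482 to 5315 CPM in control. The smallest adjusted p-values belonged to Pmp22, a gene of compact peripheral myelin, at 0.09 (SE 0.06, adjusted p = 0.644), the myelin transcription factor gene Egr2 at -0.21 (SE 0.17, 0.738), Prx, the periaxin gene, at -0.14 (SE 0.13, 0.762) and its partner Drp2 at -0.13 (SE 0.14, 0.804). Of 20 genes for the synthesis of myelin lipids, 19 were tested, 0 passed and 1 had an unadjusted p under 0.05, beside the same 11.1%. That gene was Kdsr, of sphingolipid synthesis, at 60.2 ± 1.40 CPM in icKO (SD, n = 5) and 53.8 ± 1.28 CPM in control (SD, n = 4), a difference of 0.16 on the log2 scale (SE 0.04, adjusted p = 0.129).

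**Figure D3:**
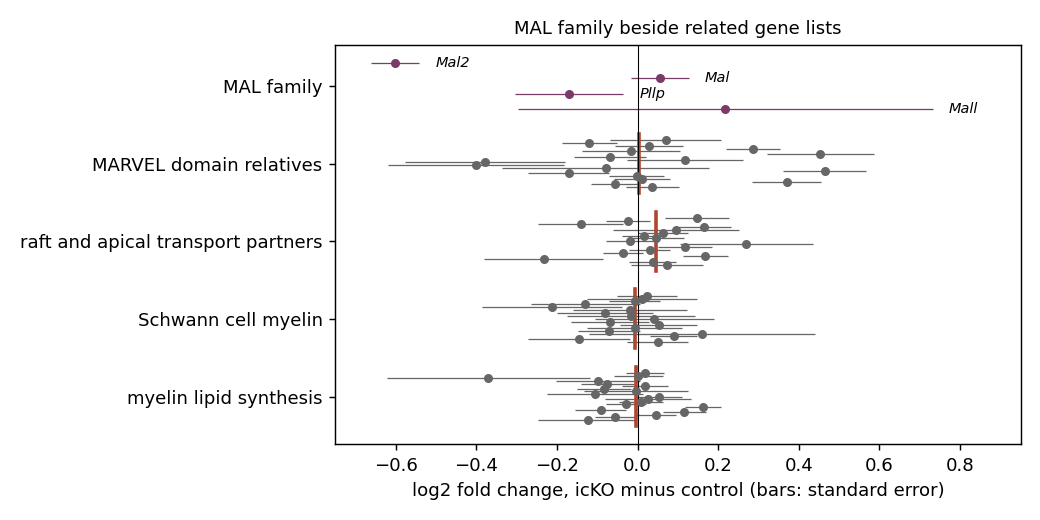
Log2 fold change, icKO minus control, with its standard error for the 4 MAL family genes and for every tested gene of 4 related lists, with a red bar at each list's median. Mal2 at -0.60 lies beyond every point of the 4 lists, whose medians run from -0.007 to 0.04.

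Markers of the cells that could carry these transcripts were set beside the members. Markers of epithelial cells, the best known site of Mal2, were low apart from Cdh1. Of 9 epithelial markers 3 were tested and 0 passed. Epcam stood at 0 to 0.510 CPM and Krt18 at 0 to 0.0367 CPM over all libraries, while Cdh1, at 193 to 215 CPM in icKO and 193 to 218 CPM in control, made up nearly all of their sum of 199 to 217 CPM in icKO and 196 to 219 CPM in control. Of the 8 T lymphocyte markers 5 were tested and 0 passed, with 5 of 5 log2 fold changes above 0 and a median of 0.35. The 8 summed to 2.54 to 4.86 CPM in icKO and 2.04 to 4.90 CPM in control, and Mal stood above 110 CPM in every library. Of 12 markers of oligodendrocytes and spinal cord, whose myelin also holds Mal and Pllp, 7 were tested and 0 passed. An unadjusted p under 0.05 was found for 3 of the 7, beside 11.1% of all genes tested. By log2 fold change, Gfap (-2.33, SE 0.93) and Ermn (-0.77, SE 0.32) were lower in icKO. Nkx6-2 was higher (0.96, SE 0.21, edgeR adjusted p = 0.0607). The 12 markers summed to 51.5 to 66.3 CPM in icKO and 56.1 to 96.6 CPM in control. Control 4 gave the highest sum, with Gfap, a gene of astrocytes and other glia, at 29.7 CPM against at most 1.47 CPM in the other control libraries, and Mal stood at 110 CPM in control 4 and at 114 to 127 CPM in the other control libraries. Without control 4, log2 fold changes were -0.57 for Mal2, 0.03 for Mal and -0.15 for Pllp, and beyond this the part of spinal cord RNA in them was not tested.

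Neuron markers were read in the same way. The 10 pan-neuronal genes summed to 15383 to 18073 CPM in icKO and 15465 to 18307 CPM in control, with 0 of 10 past the threshold. Counts by neuron class were 0 higher and 2 lower of 8 peptidergic nociceptor genes, 0 of 8 Mrgprd-type nociceptor genes, 1 higher of 8 itch-sensing neuron genes, 1 higher and 1 lower of 8 genes of C-fibre low-threshold mechanoreceptors and cold-sensing neurons, and 1 higher of 10 from A-fibre touch neurons and proprioceptors. Over all genes tested, 0.475% were past the threshold as higher and 0.377% as lower. In the A-fibre list 2 of 10 log2 fold changes were above 0 and the median was -0.23. Its summed level was 3234 to 3685 CPM in icKO and 3760 to 4279 CPM in control, with no overlap. In the list of C-fibre mechanoreceptors and cold-sensing neurons, 6 of 8 were above 0 and the median was 0.18. In the peptidergic list 3 of 8 were above 0 and the median was -0.03. Its summed level overlapped, at 2741 to 3602 CPM in icKO and 2943 to 3854 CPM in control. In the itch-sensing list 8 of 8 were above 0, with a median of 0.57. Its summed level was 268 to 340 CPM in icKO and 181 to 221 CPM in control, also with no overlap. An unadjusted p under 0.05 was found for 7 of 8 itch-sensing, 7 of 10 A-fibre and 4 of 8 peptidergic genes. It was found for 4 of 8 in the C-fibre and cold-sensing list and 2 of 8 Mrgprd-type genes, beside 11.1% of all genes tested. The lists were chosen with earlier results of these data known, so these counts are a description. Gfra3, a receptor gene for artemin, fell by 0.66 (log2; adjusted p = 0.0252) and the cold channel gene Trpm8 fell by 0.66 (log2; adjusted p = 0.00559), Trpm8 against the sign of most of its list. Cysltr2, a leukotriene receptor gene, rose by 1.11 (adjusted p = 0.000592), the neurotrophin receptor gene Ntrk3, also against the sign of most of its list, by 0.49 (adjusted p = 0.0342) and Tafa4, a secreted protein gene of C-fibre mechanoreceptors, by 0.36 (adjusted p = 0.0125). The call of Gfra3 was lost without icKO 1, 3, 4 or 5 or control 1, 3 or 4, with an adjusted p of up to 0.0761, and that of Ntrk3 without icKO 1, 3, 4 or 5 or control 1 or 3, with an adjusted p of up to 0.0969. Which of these neurons express Mal2 cannot be read from bulk libraries, and the part of any class in the Mal2 difference was not tested. Other cell types had 0 calls, with 8 endothelial and mural, 8 fibroblast and meningeal, 8 satellite glia and 8 macrophage markers tested. In the fibroblast and meningeal list 8 of 8 log2 fold changes were above 0, with a median of 0.22, and 0 had an unadjusted p under 0.05. Its summed level overlapped, at 866 to 2324 CPM in icKO and 688 to 1482 CPM in control. Medians of the endothelial, satellite glia and macrophage lists were 0.006, 0.003 and 0.06.

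How the members varied from library to library within a group does not use the difference on which they were chosen, so it could be tested. Log2 CPM values were taken as deviations from the group mean over the 9 libraries, and 10 relations were examined, the 6 pairs of members and each member with the mean of the Schwann cell myelin list. A two-sided exact permutation test exchanged libraries within groups (2880 arrangements). The clearest relation was that of Mal with the myelin list, with Pearson's r = 0.82 (exact permutation p = 0.0188, 0.188 after Benjamini-Hochberg adjustment) and Spearman's rho = 0.75 (exact permutation p = 0.0375, adjusted 0.375). It fell short of the threshold after adjustment, and r was 0.58 without icKO 1 and control 2, the 2 libraries farthest from the median of Mal. Pllp with the myelin list gave r = 0.57 (exact permutation p = 0.129, adjusted 0.481) and rho = 0.58 (exact permutation p = 0.141, adjusted 0.470), with r = 0.21 without icKO 4 and control 1.

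For Mal2 the coefficient with the myelin list was below 0, at r = -0.42 (exact permutation p = 0.350, adjusted 0.662) and rho = -0.35 (exact permutation p = 0.406, adjusted 0.709), with r = -0.32 without icKO 5 and control 4. Between members, Mal and Pllp gave r = 0.54 (exact permutation p = 0.144, adjusted 0.481) and rho = 0.58 (exact permutation p = 0.126, adjusted 0.470), and r = 0.48 without icKO 1 and control 2. Mal and Mal2 gave r = -0.33 (exact permutation p = 0.466, adjusted 0.662) and rho = -0.50 (exact permutation p = 0.221, adjusted 0.553), and r = -0.48 without icKO 1 and control 2. Mal2 and Pllp gave r = 0.21 (exact permutation p = 0.592, adjusted 0.662) and rho = 0.07 (exact permutation p = 0.885), and r = 0.16 without icKO 5 and control 4. The 4 relations of Mall, which rest on few reads, had r of -0.26 to 0.11 with adjusted exact permutation p-values of 0.662 to 0.773. None of the 10 relations passed after adjustment, and 1 had an unadjusted p under 0.05 with either coefficient.

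**Figure D4:**
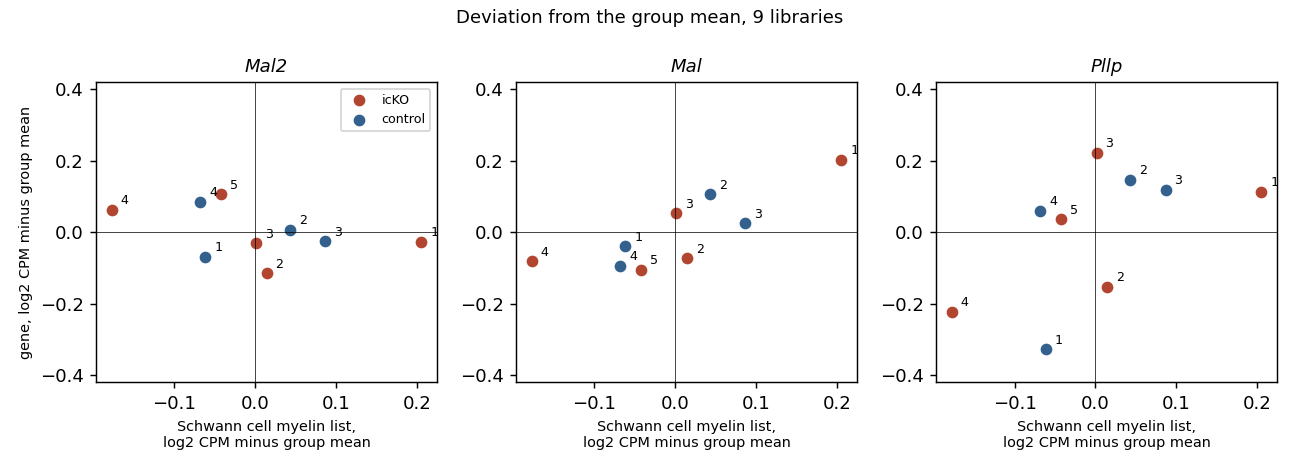
Deviation of Mal2, Mal and Pllp from their group means (y axis, log2 CPM) against the mean deviation of 17 Schwann cell myelin genes (x axis, log2 CPM) in 9 libraries, numbered by replicate. The points of Mal rise along the x axis, with icKO 1 at the far end (0.21 on the x axis and 0.20 on the y axis), while those of Mal2 do not.

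The genes whose within-group pattern was most like each member were listed by Pearson's r of the same deviations over 9 libraries, among 13699 other protein-coding genes with a mean of at least 1 CPM. These coefficients are a description, since the highest of so many will be high over 9 libraries. Among those nearest to Pllp were Prelid2, Epha2, Rcsd1 and Grrp1 (r = 0.96, 0.96, 0.95 and 0.94). Myelin genes with a high coefficient to Pllp were the gap junction gene Gjb1 at 0.84 and the myelin basic protein gene Mbp at 0.80, whereas Cd9, a tetraspanin gene, was at -0.48.

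Mal was followed by Bbs9, Safb, Aif1l, Nup35 and Tekt5 (r = 0.97, 0.95, 0.95, 0.94 and 0.93), of which Bbs9 is a gene of the primary cilium and Safb one of nuclear RNA processing. Its highest coefficients on the myelin list were 0.87 for Drp2, 0.83 for Mbp and 0.80 for Ncmap. Mal2 was followed by Spag1, Ptar1, Kcnk5, Zdbf2 and Qtrt2 (r = 0.98, 0.96, 0.96, 0.95 and 0.95), and its coefficients on the myelin list were below 0 for 13 of 17 genes, among them Ncmap at -0.61 and Mag at -0.52, and above 0 for others such as Gjb1 at 0.22. Between the groups, the log2 fold changes of these 5 ran from -0.22 for Zdbf2 (SE 0.18) to 0.10 for the potassium channel gene Kcnk5 (SE 0.17). For Mall, with 1 to 17 reads per library, the nearest were Icam2, Dmxl2, Dchs1, Kcnc2 and Trpm3 (r = 0.98, 0.97, 0.97, 0.95 and 0.95), among 13700 genes.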

How the data were processed

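Counts of reads per Ensembl gene were used as deposited, 1 table per library. The authors' tools, per the submitters' processing notes, were featureCounts 1.5.0-p1, STAR 2.5.2a and bcl2fastq 2.20.0.422, with genome build mm10. Annotation release, strand and multi-mapping settings were not given in the sources used here. All 55536 identifiers were found in GENCODE M21 (GRCm38), the source of symbols, positions and lengths.

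Members and gene lists were chosen with earlier results of these data known. Groups came from the titles. Genes were filtered with filterByExpr (minimum count 10, minimum total 15), leaving 17258, the 4 members among them, Mall narrowly. edgeR 4.0.16 (R 4.3.3) gave TMM-scaled CPM and a quasi-likelihood test of icKO against control, adjusted by Benjamini-Hochberg over all genes tested. The fit was tested on simulated data. TPM used the union exon length. Deviations used log2 CPM with a prior count of 2. Coding sequences were aligned with Biopython 1.88. Replicate libraries differed by more than sampling noise (chi-square over its degrees of freedom 6 to 23.04), so each counted once. From each list, up to 4 genes with the smallest adjusted p could be named, and for each member the 5 genes nearest in pattern; some of these genes are not reported here. Alternatives were RLE size factors, library size alone, a robust fit, other filters, DESeq2 1.42.0, a replicate block, a term for Y-linked counts, and each library left out. Floors of 3 counts cover counting error only.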

Additional observations from a re-analysis of the deposited data

Results flagged for a closer look

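Among 110 sets of libraries (the 4 members, Prdm12 and the other genes named by rule, in each group), 4 held a library far from the others, where chance alone gives about 1 in 20 sets. None of the 4 members was among them. Gfap stood at 29.7 CPM in control 4, against 0.449 to 1.47 CPM in the other control libraries. Mobp, a gene of oligodendrocyte myelin, stood at 3.40 CPM in control 4, against 0.182 to 0.408 CPM in the other control libraries. In icKO 5 Mobp stood at 0.908 CPM, against 0.271 to 0.411 CPM in the other icKO libraries. Grrp1, one of the genes nearest to Pllp in pattern, stood at 0.953 CPM in control 1, against 1.67 to 1.80 CPM in the other control libraries, and control 1 was also the lowest control library for Pllp.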

How the results depend on the processing

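Mal2 kept its direction under all 17 alternatives, with log2 fold changes of -0.63 to -0.57, and values for Mal ran from 0.002 to 0.09, for Pllp from -0.27 to -0.12 and for Mall, over the 14 alternatives that kept it, from -0.15 to 0.59. Mall was removed by the filter at 1 CPM and by the count filter without icKO 1 or icKO 4. Genes past the threshold numbered 82 higher and 65 lower. They were 172 and 221 without a filter, 198 and 238 with DESeq2, and 45 to 85 and 33 to 90 without single libraries, the fewest both without icKO 1. Lower genes were also few without icKO 3 (34), icKO 4 (35), icKO 5 (38), control 1 (43) and control 3 (37). Genes of the lists past the threshold, 3 higher and 3 lower, were 14 and 8 without a filter, 12 and 7 with DESeq2, 5 higher with the robust fit and 5 higher with the term for Y-linked counts, and 2 to 6 higher and 2 to 4 lower without single libraries. The cause was not tested. Without single libraries, r ranged from -0.58 to 0.28 for Mal with Mall, from -0.17 to 0.41 for Mal2 with Mall, from -0.0914 to 0.443 for Mal2 with Pllp, from -0.561 to 0.0743 for Mall with the myelin list and from 0.59 to 0.87 for Mal with the myelin list, with no adjusted p under 0.05. The replicate numbers shared by the groups gave no sign of pairing. Deviations of same-numbered libraries correlated at -0.18 to 0.17 across genes, and none correlated best with its own number. For icKO 4 the values were close, at 0.170 with control 4 and 0.174 with control 2. Such correlations cannot exclude that the numbers mark a shared litter or batch. With the replicate block, 28 genes were higher and 20 lower, the calls of Gfra3 (adjusted p = 0.133), Tafa4 (0.0706) and Ntrk3 (0.0960) were lost, and Mal2 was at -0.63 (SE 0.07). At 1 to 17 reads, depth limits what can be said of Mall.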
